A study of Rattus norvegicus with 6 samples.

Results

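The genes described here encode myosin light chains, the kinases that phosphorylate them and the proteins that bind the cardiac myosin filament. They were taken by symbol from the deposited table, which held all 10 of them (Myl2, Myl3, Myl4, Myl7, Myl6, Myl9, Mylk, Mylk3, Mybpc3 and Mybphl) among 23096 genes. RNA came from primary ventricular cardiomyocytes of Wistar rat embryos at E18.5, kept in culture. For 48 h, 3 cultures were given DMSO, the solvent, as vehicle, and 3 were given ATRA (all-trans retinoic acid, a ligand of nuclear receptors) at 10 µM. Both groups had first spent 24 h in the same medium with 7% fetal bovine serum, vitamin B12 and antibiotics, after pre-plating steps that reduce but do not remove fibroblasts. Whether each library stems from its own cell isolation is not stated, so every p-value reflects only how much these samples varied, a variation that could be technical.

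A myosin heavy chain carries an essential and a regulatory light chain on its lever arm. In the heart the chambers use different genes: Myl2 (regulatory) and Myl3 (essential) in the ventricle, Myl7 (regulatory) and Myl4 (essential) in the atrium, although Myl4 is also made in the fetal ventricle. Cardiac myosin light chain kinase, encoded by Mylk3, phosphorylates Myl2 and tunes contraction, while Myl9, Myl6 and the kinase gene Mylk belong to the smooth muscle and non-muscle system. Mybpc3, cardiac myosin binding protein C, restrains cross-bridges, and Mybphl is a related protein known from atrium and conduction tissue in mouse and human.

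The libraries held 25434878 to 32052035 gene-assigned reads. Levels between genes are compared as FPKM, the authors' value scaled to transcript length and depth, and changes are tested on normalised counts, the authors' reads divided by a size factor per library. A gene is called when its limma test, made over all 13110 genes with enough signal, has a Benjamini-Hochberg adjusted p under 0.05. All 10 genes were tested; Mylk (100 to 196 reads per library) and Mybphl (70 to 132) were the low ones, and Myl7, the next lowest, had at least 1691. Of the cardiomyocyte markers, 7 of 7 were tested, 3 rose and none fell, and their mean log2 level was 0.33 higher after ATRA. It was lowest in vehicle replicate 1, which also gave the lowest of all 6 values for 6 of the 10 genes. Of 10 fibroblast markers tested, 1 rose (Dcn) and 4 fell, with a median of -0.61, among them Postn 11.5-fold, Thy1 3.01-fold and Ddr2 2.65-fold. Their sum, which is mostly collagen RNA, was at 125420 to 280276 normalised counts in vehicle and 119236 to 126102 after ATRA, and all 10 had their lowest vehicle value in vehicle replicate 3. In such bulk RNA, fewer cells of a type and less RNA per cell cannot be told apart. The part of these differences in the results below was not tested.

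ATRA-treated cells had more ventricular light chain RNA, more cardiac kinase RNA and much more Myl9 RNA, and less of the atrial Myl7. Of the 10 genes, 5 rose (Myl2, Myl3, Myl9, Mylk and Mylk3), 2 fell (Myl7 and Mybphl) and 3 were not called (Myl4, Myl6 and Mybpc3). Over all genes tested, 39.3% were called, 20.3% as higher and 18.9% as lower, so that many genes of any kind moved in these cells. Without a scaling beyond library size, 1765 genes were higher and 3769 lower, against 2667 and 2483 with the authors' size factors, and the median of all genes lay at -0.104 in place of 0.004. The calls for the 10 genes were the same under both scalings. The groups did not overlap for 9 of the 10, all but Mybpc3, with ATRA above vehicle for 7 and below for 2. Of all genes tested, 53.8% had groups that did not overlap, 27.6% with ATRA above and 26.2% with ATRA below. The median log2 fold change of the 10 was 0.43.

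**Figure D1:**
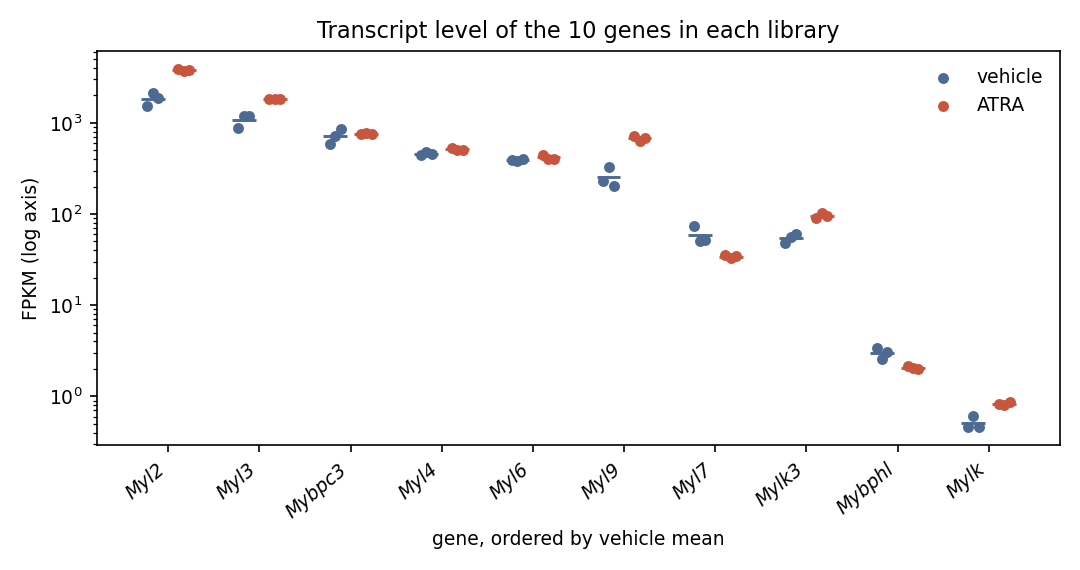
FPKM of each of the 10 genes in every library on a log axis, with vehicle in blue, ATRA in red and a line at each group mean. Myl2 is highest in both groups (means 1838 and 3816 FPKM), Mylk is lowest (0.508 and 0.827), and Myl9 passes Myl4 and Myl6 after ATRA.

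Myl2, the regulatory light chain of the ventricle and slow muscle (ENSRNOG00000030848), stood at 124743, 171983 and 152404 normalised counts in the vehicle libraries and at 319789, 304171 and 308336 in the ATRA libraries. Every ATRA library was above every vehicle library, and the ATRA libraries lay much closer together. The rise was 2.09-fold (log2 fold change 1.07 ± 0.14, SE, n = 3 per group, limma adjusted p = 0.00077). By FPKM, Myl2 was the 22nd most abundant of all genes in the table in vehicle and the 12th after ATRA.

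Myl3, the essential light chain of the ventricle (ENSRNOG00000020955), had 54270, 72814 and 72708 normalised counts in vehicle and 113555, 112127 and 112041 after ATRA. Vehicle replicate 1 was the low library, as it was for Myl2, and the groups did not overlap. Myl3 rose 1.71-fold (0.77 ± 0.12, adjusted p = 0.0021), less than Myl2. The ratio of Myl2 to Myl3 FPKM was therefore 1.59 to 1.79 in vehicle and 2.06 to 2.14 after ATRA.

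The atrial regulatory light chain Myl7 (ENSRNOG00000014409) went the other way. It had 3927, 2731 and 2776 normalised counts in vehicle and 1885, 1764 and 1833 after ATRA. Vehicle replicate 1, the lowest library for Myl2 and Myl3, was the highest for Myl7, and no ATRA library reached a vehicle library. The fall was 1.7-fold (-0.76 ± 0.13, adjusted p = 0.003), and the log2 fold change was -0.59 with vehicle replicate 1 left out (adjusted p = 0.00011).

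Myl4, the atrial and fetal essential light chain (ENSRNOG00000050675), did not fall with Myl7. It had 16415, 17556 and 17059 normalised counts in vehicle and 19753, 18449 and 18722 after ATRA. The groups did not overlap, but the difference was small (0.16 ± 0.06) and just missed the threshold (adjusted p = 0.056). In the authors' deposited table Myl4 had a log2 fold change of 0.16 and an adjusted p of 0.045, so that 8 of the 10 genes passed 0.05 there, against 34.0% of all genes with an adjusted p in the authors' deposited table. Leaving out vehicle replicate 3 also brought a call for Myl4 (0.16, adjusted p = 0.033), and scaling by library size alone gave 0.05 (adjusted p = 0.49).

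These changes moved the isoform balance of both light chains toward the ventricular gene. Myl7 made up 4.57%, 2.36% and 2.69% of the summed FPKM of Myl7 and Myl2 in the vehicle libraries, and 0.888%, 0.874% and 0.895% in the ATRA libraries. The mean share was 3.21% ± 1.19 in vehicle and 0.886% ± 0.011 after ATRA (SD, n = 3), a difference of -2.32 percentage points (two-sided exact permutation p = 0.1, the smallest that 3 against 3 libraries can give). In other words, Myl2 exceeded Myl7 by 20.9 to 41.4 times in vehicle and by 111 to 114 times after ATRA. Without vehicle replicate 1 the difference was -1.64 points.

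The essential pair was more mixed, since Myl4 is abundant in these ventricular cells. Myl4 made up 33.5%, 28.7% and 28.1% of the summed FPKM of Myl4 and Myl3 in vehicle and 22.5%, 21.5% and 21.8% after ATRA. The mean went from 30.1% ± 2.97 to 21.9% ± 0.494 (SD, n = 3), a difference of -8.18 points (two-sided exact permutation p = 0.1, again the smallest possible). The groups did not overlap for either share. Of the essential pair Myl3 alone was called, and of the regulatory pair both genes were called.

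**Figure D2:**
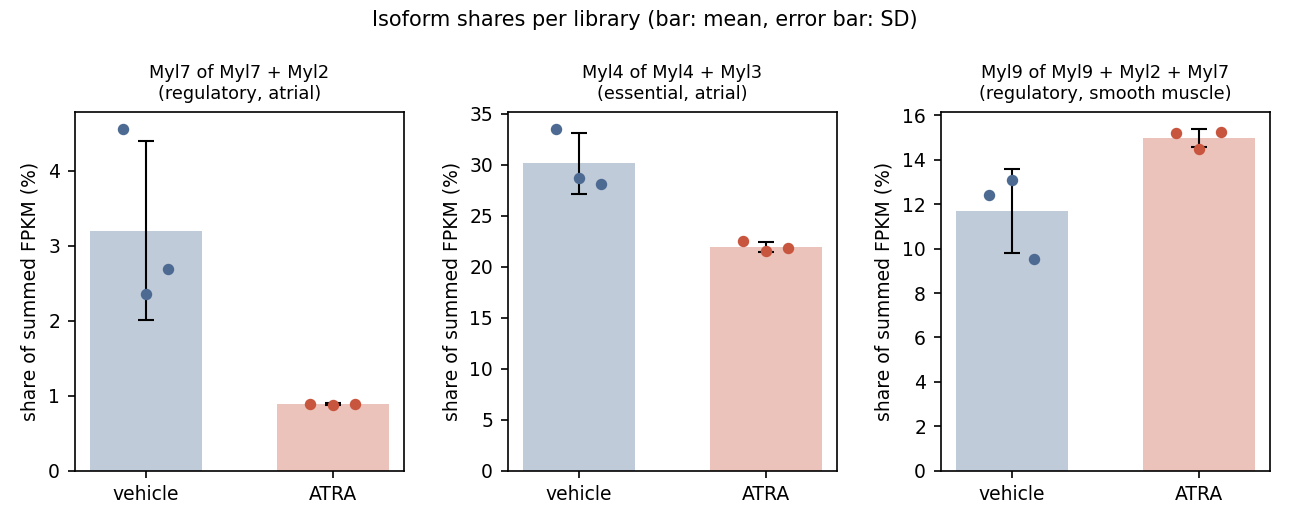
Share of summed FPKM, in percent, for 3 light chain comparisons, with 1 point per library, bars at the group mean and error bars of 1 SD (n = 3). The Myl7 and Myl4 shares of all ATRA libraries lie below all vehicle libraries, and the Myl9 shares (14.5% to 15.2%) lie above them (9.56% to 13.1%).

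Myl9, the regulatory light chain of smooth muscle and non-muscle myosin (ENSRNOG00000020246), changed most of the 10. It had 7721, 11055 and 6889 normalised counts in vehicle and 24113, 21665 and 23287 after ATRA. The vehicle libraries differed among themselves more than for any other of the 10 genes (coefficient of variation 25.8%), yet the lowest ATRA library was well above the highest vehicle library. The rise was 2.75-fold (1.46 ± 0.16, adjusted p = 0.00036). Its share of the summed FPKM of Myl9, Myl2 and Myl7 was 12.4%, 13.1% and 9.56% in vehicle and 15.2%, 14.5% and 15.2% after ATRA, a mean difference of 3.29 points (two-sided exact permutation p = 0.1). Per length it stood below Myl4 and Myl6 in vehicle (252 ± 65 FPKM) and above both after ATRA (679 ± 36.7 FPKM, SD, n = 3).

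Myl6, the essential light chain that pairs with Myl9 on smooth and non-muscle myosin (ENSRNOG00000054140), hardly moved. Its normalised counts were 24402, 23870 and 24927 in vehicle and 27749, 25300 and 25147 after ATRA (0.09 ± 0.06, adjusted p = 0.26), and with library size alone the value was -0.01. The ATRA libraries lay just above the vehicle libraries, with ATRA replicate 1 the highest. Close copies of Myl6 in the rat genome leave its separate value uncertain, because the counting of shared reads is not given in the sources used here.

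Mylk3, the cardiac light chain kinase (ENSRNOG00000017546), had 6214, 7181 and 7833 normalised counts in vehicle and 11667, 13283 and 12254 after ATRA. The groups were far apart, and the rise was 1.76-fold (0.81 ± 0.09, adjusted p = 0.00042). Mylk, the smooth muscle kinase gene (ENSRNOG00000002215), was nearly silent by comparison, with 106, 141 and 109 normalised counts in vehicle and 192, 187 and 201 after ATRA. It rose 1.64-fold (0.71 ± 0.14, adjusted p = 0.0054). Mylk3 made up 99.1% ± 0.156 of their summed FPKM in vehicle and 99.1% ± 0.0736 after ATRA (SD, n = 3, difference 0.067 points, two-sided exact permutation p = 0.5).

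Mybpc3, cardiac myosin binding protein C (ENSRNOG00000012307), was the gene whose groups overlapped. It had 70727, 86722 and 105812 normalised counts in vehicle and 93164, 93310 and 92029 after ATRA, so that the ATRA libraries, which differed from each other by little, lay inside the vehicle range. The log2 fold change was 0.1 ± 0.14 (adjusted p = 0.6). Leaving out vehicle replicate 3 made it a call (0.245, adjusted p = 0.043), and the value was -0.045 when vehicle replicate 1 was left out and -0.008 under scaling by library size alone.

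Mybphl, the myosin binding protein H-like gene (ENSRNOG00000037082), was low throughout. It had 128, 98.1 and 116 normalised counts in vehicle and 81.3, 76.8 and 75.9 after ATRA. Like Myl7 it was lower in each ATRA library than in any vehicle library, by 1.45-fold (-0.53 ± 0.15, adjusted p = 0.023). With only 70 to 132 reads per library the call was fragile: it was lost without vehicle replicate 1 (adjusted p = 0.06) and without ATRA replicate 1, 2 or 3 (0.059, 0.076 and 0.079).

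By FPKM the order of the 10 genes in vehicle was Myl2, Myl3, Mybpc3, Myl4, Myl6, Myl9, Myl7, Mylk3, Mybphl and Mylk. Myl7 and Mylk3 were the only neighbours whose libraries overlapped (51.0 to 73.3 and 47.9 to 60.4 FPKM). After ATRA the order was Myl2, Myl3, Mybpc3, Myl9, Myl4, Myl6, Mylk3, Myl7, Mybphl and Mylk, and no neighbours overlapped. The vehicle libraries had the larger coefficient of variation for 8 of the 10 genes, at 2.17% to 25.8% against 0.755% to 6.6% after ATRA, with Myl4 and Myl6 as the exceptions.

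The same values were also expressed relative to the mean log2 level of the 7 cardiomyocyte markers in each library. This lowers the difference of every gene by the same 0.33 and leaves the gaps between genes as they were. On that scale Myl9 was 1.13 higher after ATRA, Myl2 0.735 higher, Mylk3 0.48 higher, Myl3 0.44 higher and Mylk 0.38 higher, and the differences were -1.09 for Myl7 and -0.865 for Mybphl, with no overlap of the groups for these 7 genes. The 3 genes that were not called had values below 0 on this scale (-0.17 for Myl4, -0.24 for Myl6 and -0.23 for Mybpc3) through the subtraction of the marker level alone. Of these 3, only Myl4 had overlapping groups on this scale, and for Myl6 and Mybpc3 every ATRA library lay below every vehicle library. The measure was added after the values were seen and was not tested.

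The light chains were also set beside the cardiac heavy chains that they bind, by summed FPKM and as a description with no test. Myl2 and Myl7 together made 0.954, 1.09 and 0.8 FPKM per FPKM of Myh6 and Myh7 in the vehicle libraries, and 1.53, 1.5 and 1.45 in the ATRA libraries. Myl3 and Myl4 together made 0.786, 0.835 and 0.681 in vehicle and 0.918, 0.918 and 0.878 after ATRA. Regulatory RNA thus gained on both heavy chain and essential RNA, and the ratio of regulatory to essential FPKM was 1.23 ± 0.0689 in vehicle and 1.65 ± 0.0209 after ATRA (SD, n = 3). The ratio of Mybpc3 to heavy chain FPKM was lower after ATRA, at 0.344 to 0.36 in vehicle and 0.285 to 0.303 after ATRA. Mybpc3 itself was not called, and the summed heavy chain FPKM was 1.28 times as high after ATRA. The groups did not overlap in any of these ratios. Reads shared by the close pair Myh6 and Myh7 bear less on their sum than on either gene.

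**Figure D3:**
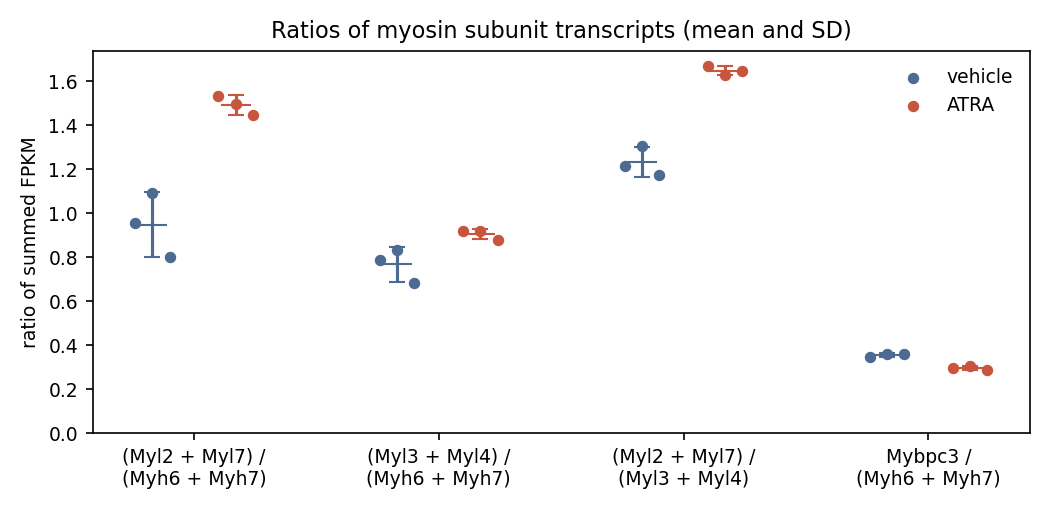
Ratios of summed FPKM in each library for regulatory, essential and heavy chain genes and Mybpc3, with group means and SD (n = 3). The first 3 ratios are higher in all ATRA libraries (for example 1.45 to 1.53 against 0.8 to 1.09 for regulatory per heavy chain), and Mybpc3 per heavy chain is lower.

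The heavy chain list moved both ways. Of 7 tested genes 3 rose and 2 fell, with a median of 0.39. Myh6, the fast cardiac chain, was at 1.49 ± 0.16 (adjusted p = 0.00037), and Myh7, the slow one, at -0.63 ± 0.16 (adjusted p = 0.015), a call that was lost without ATRA replicate 1, 2 or 3. Among the heavy chains that use Myl9 and Myl6, Myh14 (1.03 ± 0.18) and the smooth muscle chain Myh11 (0.62 ± 0.13) rose, whereas Myh9, the most abundant of these by FPKM, fell from 100 to 60 FPKM (-0.72 ± 0.12, adjusted p = 0.0029). Myl9 and Myh9 therefore changed in opposite directions.

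The other light chain genes were few. Myl12a, a non-muscle regulatory chain at 326 FPKM in vehicle, fell slightly (-0.16 ± 0.05, adjusted p = 0.045), a call that was lost without vehicle replicate 2 or any ATRA library (adjusted p = 0.073 to 0.19) and with no filter or with the replicate number as a block. Reads may be shared with its near-identical neighbour Myl12b, which was not analysed here. The skeletal Myl1 rose from a very low level (2.17 to 13 normalised counts in vehicle, 19.6 to 30.3 after ATRA, 1.87 ± 0.53, adjusted p = 0.025), and lost its call without ATRA replicate 1, 2 or 3 (0.059, 0.093 and 0.08). The skeletal regulatory chain Mylpf was not called (-0.29 ± 0.48, named here after its value was seen). Of the other myosin binding proteins, Mybpc2 was tested and not called (0.18 ± 0.13, adjusted p = 0.31), and Mybpc1 and Mybph did not reach the filter.

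Regulators of light chain phosphorylation were listed as a phosphatase side and a kinase side. The phosphatase list holds both subunits and inhibitors, so its counts give no direction for phosphatase activity, which was not measured. For scale, 20.3% of all genes tested were called higher. Of 7 tested genes of myosin phosphatase and its inhibitors, 4 rose, 0 fell and 3 were not called, with a median of 0.35 (2 rose without ATRA replicate 1, and 3 rose and 1 fell under scaling by library size alone). The risers were Ppp1r12b (0.76 ± 0.1, adjusted p = 0.00098), the targeting subunit that is prominent in heart, Ppp1r12c (0.47 ± 0.06, adjusted p = 0.00097), Ppp1r12a (0.35 ± 0.08, adjusted p = 0.01) and the inhibitor gene Ppp1r14c (0.38 ± 0.12, adjusted p = 0.035). The call for Ppp1r14c was lost under scaling by library size alone and in each fit that omitted an ATRA library or vehicle replicate 1 or 2 (adjusted p = 0.075 to 0.12), and that for Ppp1r12a without ATRA replicate 1 (0.051). The catalytic subunit gene Ppp1cb was not called (-0.06 ± 0.05), and is named here after its value was seen.

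On the kinase side, 2 of 10 tested genes rose, 1 fell and 7 were not called, with a median of 0.04. Dapk3, also called ZIP kinase, which phosphorylates regulatory light chains, rose 1.5-fold (0.58 ± 0.11, adjusted p = 0.0056), and Rock2, which inhibits the phosphatase, rose 1.2-fold (0.27 ± 0.05, adjusted p = 0.0042). Calm2, one of the genes for the calcium sensor calmodulin, fell 1.43-fold (-0.51 ± 0.07, adjusted p = 0.0012). The list had 4 higher and 2 lower genes without vehicle replicate 3, and scaling by library size alone gave 3 lower.

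**Figure D4:**
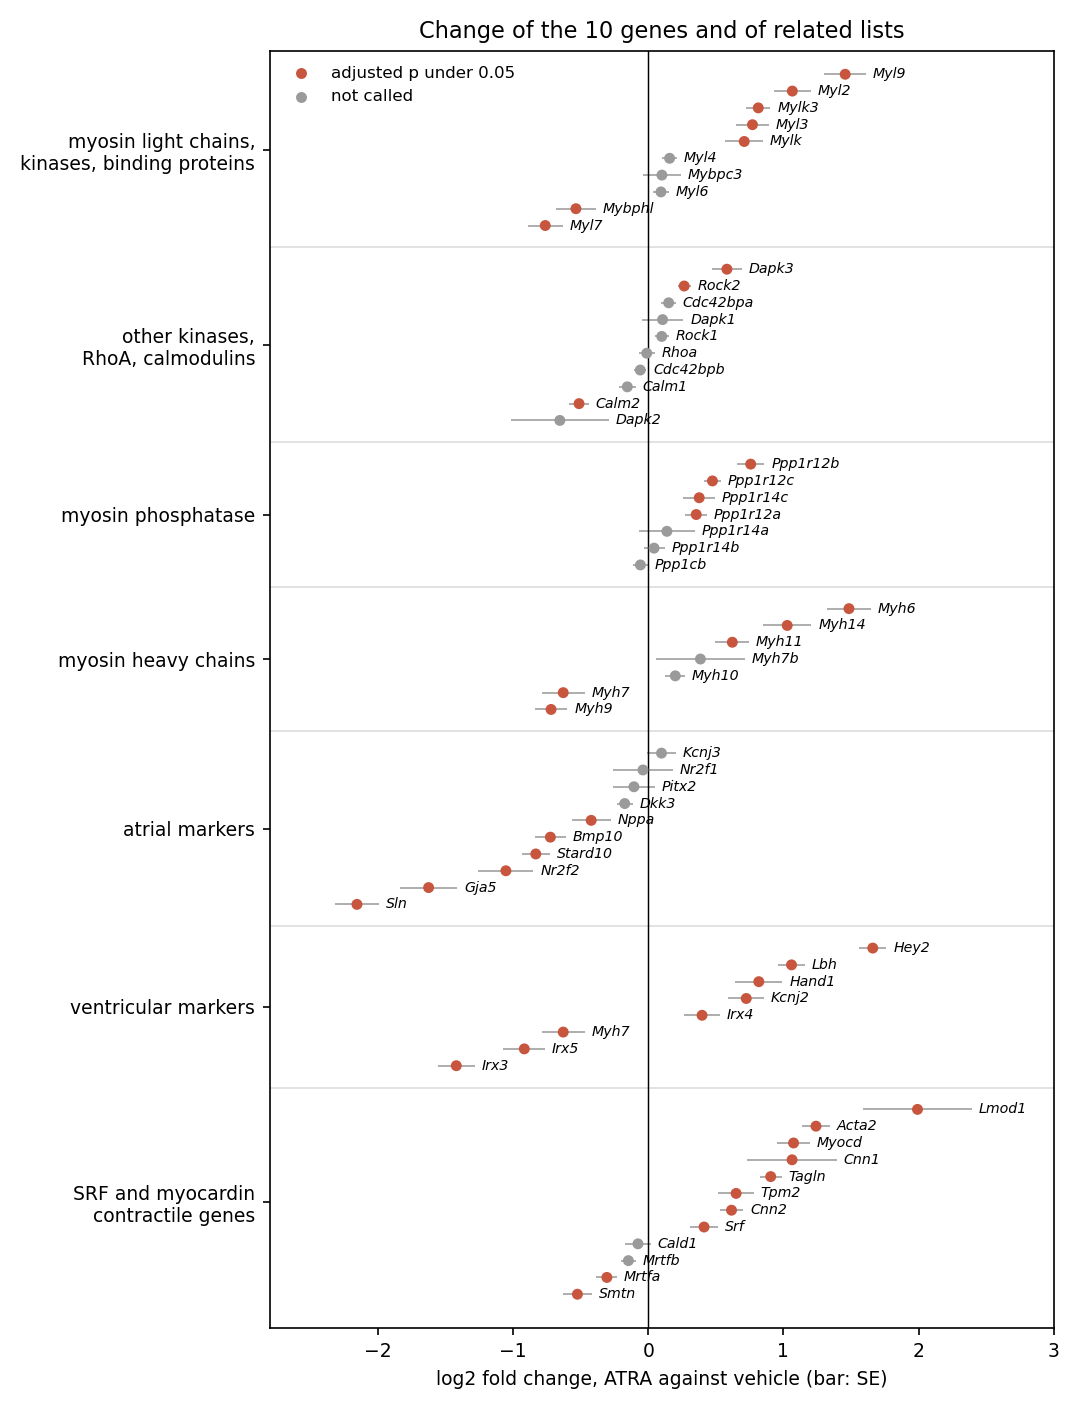
Log2 fold change of ATRA against vehicle with its standard error for each tested gene of 7 lists, the 10 genes of interest at the top, and called genes in red. Of the 10, 5 lie to the right and 2 to the left past the threshold, and genes of the atrial list are called only on the left (6 of 10). Myh6, which is on the heavy chain list and not on the atrial list, is called on the right. Genes of the SRF and myocardin list, which holds Srf and Myocd besides contractile genes, are called mostly on the right (8 of 12).

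Other chamber markers were set beside the light chains. Of 10 tested genes on the atrial list 0 rose, 6 fell and 4 were not called, with a median of -0.57. The number that fell was 5 with no filter or a replicate block, and 7 in edgeR, DESeq2 or with library size alone. Atrial is a list name here: Nppa, named after its value was seen, was at 11210 FPKM in these ventricular vehicle cultures. Nppa was at -0.42 ± 0.14 (adjusted p = 0.048), a call lost with no filter (0.066) or a pseudocount of 5 (0.054). Sarcolipin, or Sln, an inhibitor of the calcium pump in atrial muscle, was at -2.15 ± 0.16 (adjusted p = 6.6e-05), the connexin gene Gja5 at -1.63 ± 0.21 (adjusted p = 0.00086), Stard10 at -0.83 ± 0.1 (adjusted p = 0.00074) and Bmp10 at -0.72 ± 0.12 (adjusted p = 0.0022). The ventricular list split, with 5 of 8 higher and 3 lower, Myh7 of the heavy chain list among them, and a median of 0.56. With library size alone 4 were higher. Myh6 was on the heavy chain list only, not on a chamber list. Its share of the summed FPKM of Myh6 and Myh7 was 30.3% ± 5.49 in vehicle and 65.1% ± 2.47 after ATRA (SD, n = 3). The heavy chain balance thus moved away from Myh7, the chain on the ventricular list. Hey2, a transcriptional repressor of atrial genes in the ventricle, rose 3.16-fold (1.66 ± 0.1, adjusted p = 2.2e-05) and Lbh 2.08-fold (1.06 ± 0.1, adjusted p = 2e-04), while the homeobox genes Irx3 (-1.42 ± 0.14, adjusted p = 2e-04) and Irx5 (-0.92 ± 0.15, adjusted p = 0.0028) fell.

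Myl9 moved along with several genes that serum response factor (SRF) and its partner myocardin control in smooth muscle. Of 12 tested genes on that list 8 rose, 2 fell and 2 were not called, with a median of 0.63. The 2 that fell, named here after their values were seen, were Smtn (-0.52 ± 0.11, adjusted p = 0.0069) and Mrtfa (-0.31 ± 0.08, adjusted p = 0.016). Acta2 (1.24 ± 0.1, adjusted p = 1e-04), Tagln (0.91 ± 0.08, adjusted p = 0.00015), the myocardin gene Myocd (1.07 ± 0.12, adjusted p = 0.00041) and the calponin gene Cnn2 (0.62 ± 0.09, adjusted p = 0.0013) had the smallest p. Cnn1, chosen after its values were seen, had 1628, 3941 and 1442 normalised counts in vehicle and 4660, 4017 and 4517 after ATRA, with its high vehicle library in replicate 2, as for Myl9. Its call was lost in edgeR, in DESeq2, and when vehicle replicate 1 or any of the ATRA libraries was left out (adjusted p = 0.069 to 0.14).

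Markers of smooth muscle and pericytes gave no single direction beside this. Of 7 tested 3 rose (Abcc9, Cnn1 and Myh11) and 3 fell (Pdgfrb, Cspg4 and Notch3), and Rgs5 had no read in any vehicle library. Their summed level was 7958 to 13704 normalised counts in vehicle and 20882 to 21896 after ATRA, but Abcc9 alone went from between 957 and 1557 to between 13878 and 14291, and without it the sums were 6611 to 12147 and 7005 to 7837. Of 7 endothelial markers 1 rose (Kdr) and 2 fell, and their summed level was 623 to 1130 in vehicle and 1273 to 1439 after ATRA, or 330 to 825 and 280 to 341 without Kdr. Of 4 immune markers 1 rose (Csf1r) and 1 fell (Cd14), and the summed level was 223 to 273 in vehicle and 301 to 422 after ATRA, or 101 to 183 and 36.4 to 54.9 without Csf1r. Of 5 epicardial markers 0 rose and 4 fell, with sums of 1218 to 2033 and 886 to 920. The immune marker Cd163 and the skeletal marker Myf5 had no read in any library, and of the skeletal markers only Ckm, which heart also makes, passed the filter. The 2 erythroid markers matched had a summed level under 3 normalised counts. Their part in the light chain results was not tested.

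The profiles most like those of the chamber light chains were sought among the other 13109 tested genes. The measure was the root mean square difference, over the 6 libraries, of log2 levels centred on the vehicle mean. Each is a smallest value over 13109 genes with 6 values per gene, and shared regulation was not tested. For Myl3 the nearest were Smyd1 (0.0344), Klhl31 (0.0415) and Camk2a (0.0522). For Myl2 they were Dnah17 (0.0537), Abcd2 (0.0609) and Plbd1 (0.0619), for Myl4 Trap1 (0.022), Edf1 (0.0221) and Sin3a (0.0222), and for Myl7 Slc39a6 (0.0578), Ftl1 (0.0585) and Rcn2 (0.072).

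Promoter sequence of 8 of the 10 genes was at hand in RefSeq (build GRCr8), all but Myl2 and Myl9. The 250 bases before the start are printed for the called heart genes that were matched, a pair that rose (Myl3 and Mylk3) and a pair that fell (Myl7 and Mybphl), so that the motif letters can be seen in place. Capitals mark motif matches on either strand, and the 4 stretches are chr8:119616844-119617093 on the plus strand (Myl3), chr19:37881745-37881994 on the plus strand (Mylk3), chr14:84996625-84996874 on the minus strand (Myl7) and chr2:198693202-198693451 on the plus strand (Mybphl), each written 5′ to 3′ toward its gene.
Myl3: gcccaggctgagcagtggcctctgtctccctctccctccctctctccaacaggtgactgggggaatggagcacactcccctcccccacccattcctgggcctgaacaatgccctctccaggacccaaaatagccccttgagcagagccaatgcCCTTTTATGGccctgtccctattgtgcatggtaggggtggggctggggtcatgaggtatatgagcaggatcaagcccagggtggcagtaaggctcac
Mylk3: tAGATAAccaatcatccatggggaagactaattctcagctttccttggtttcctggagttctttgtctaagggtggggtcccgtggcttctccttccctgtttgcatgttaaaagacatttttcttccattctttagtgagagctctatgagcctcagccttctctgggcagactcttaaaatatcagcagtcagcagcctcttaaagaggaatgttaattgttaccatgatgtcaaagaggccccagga
Myl7: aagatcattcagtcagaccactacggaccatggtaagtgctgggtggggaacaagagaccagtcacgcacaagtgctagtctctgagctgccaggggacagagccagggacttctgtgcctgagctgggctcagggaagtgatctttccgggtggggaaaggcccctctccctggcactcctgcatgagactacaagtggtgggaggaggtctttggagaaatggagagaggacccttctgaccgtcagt
Mybphl: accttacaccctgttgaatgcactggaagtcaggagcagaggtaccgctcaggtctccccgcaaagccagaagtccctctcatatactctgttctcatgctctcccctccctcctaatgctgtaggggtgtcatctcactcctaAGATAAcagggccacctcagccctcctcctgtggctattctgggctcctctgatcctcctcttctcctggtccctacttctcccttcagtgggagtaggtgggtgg

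The Myl3 stretch holds a CArG box, the sequence that SRF binds, which begins at position -97 counted from the start and is found in 1.5% of 33469 RefSeq promoter stretches of the same length. A GATA site (AGATAA) stands in the Mylk3 and Mybphl stretches, and in 10.3% of all stretches. Of the 8 matched genes, Mybpc3 held the MEF2 site, present in 0.523% of all. The receptor core AGGTCA (14.1% of all stretches) and direct repeats of the retinoic acid receptor type spaced by 1, 2 or 5 bases (0.194%, 0.137% and 0.326%) were not among the letters of any of the 8 windows. No window held matches to different motifs, and a match is a description of the sequence and no evidence of binding.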

How the data were processed

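RNA was measured in 3 vehicle and 3 ATRA libraries, grouped by their titles. Tools listed in the submitters' processing notes are HTSeq 0.11.2, STAR 2.7.3a, DESeq2 1.32.0 and Trim Galore 0.6.4, with build mRatBN7.2, and no strand or multi-mapping setting is given in the sources. The deposited normalised count is a signal, which the authors obtained as reads over one size factor for each library. The deposited FPKM values equal those counts times a constant per gene. For the authors' comparison the deposited columns are a log2 fold change, a score (the test statistic), and the p-value with its adjusted form.

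Each normalised count was a whole multiple, within 1e-08, of the smallest value of its library, and this gave back the reads. All pairs of libraries within a group differed beyond sampling noise (chi-square over degrees of freedom at least 2.57). The main test was limma (3.58.1), its variance trend switched on, applied to log2(normalised count + 1), a scale that understates changes of low genes, for genes with at least 10 in at least 3 libraries. Alternatives were edgeR 4.0.16 and DESeq2 1.42.0 on recovered reads, another pseudocount, other filters, library size alone, a replicate block and leaving out each library. The test was tested on simulated data: for the ATRA comparison with 13110 genes, 200 of them changed 2-fold, it recovered 76% of these, with 11 false calls. The simulation gave both groups the same spread. In the real data 39.3% of genes were called and chi-square over degrees of freedom was 23.22 to 48.45 in vehicle and 2.57 to 3.39 in ATRA. The simulated rates therefore need not hold for these data. Shares used exact permutation over libraries. Lists were 17 in number, the 10 genes included, with 137 entries, of which 9 matched no gene and were not analysed here. Named genes were the 10, the called genes of a pathway list (or, above 5, the 4 of smallest p) and the nearest profiles. The genes and lists were chosen with earlier results of these data known.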

Additional observations from a re-analysis of the deposited data

How the results depend on the processing

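Myl2, Myl3, Myl7, Myl9, Mylk and Mylk3 kept their direction and their call under every alternative run, and 6 to 9 of the 10 genes were called when 1 library was left out (5 to 7 higher, 1 to 2 lower). The number of all genes called then ranged from 3306 to 6459 (1665 to 3398 higher, 1636 to 3061 lower), against 5150, with the lowest counts without an ATRA library. Library size alone gave 1765 higher and 3769 lower genes, and there Myl6 was at -0.014 and Mybpc3 at -0.008, while Mybpc3 was at -0.045 without vehicle replicate 1 and at 0.245, called, without vehicle replicate 3. The share differences ranged, over left-out libraries, from -2.74 to -1.64 points for Myl7, -9.17 to -6.47 for Myl4, 2.22 to 4.0 for Myl9 and -0.00698 to 0.148 for Mylk3, the last with a change of sign without vehicle replicate 2. The cause was not tested. Same-numbered libraries did not deviate together (r = 0, -0.103 and -0.013). With 3 libraries per group, of which the ATRA libraries varied little, this cannot tell whether same-numbered libraries share an origin. With the replicate number as a block, 7 of the 10 genes were called, as without it, and 4437 of all genes. The low read numbers of Mylk, Mybphl and Myl1 limit what can be said of them.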
